A study of Homo sapiens with 6 samples.

Results

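The genes described are 34 interferon-stimulated genes, taken from a list of symbols and found by name among the 19198 genes listed for MCF10A cells. All 34 were measured, and all 34 had a mean of at least 10 normalized counts over the 6 samples and entered the test. MCF10A is an established, non-tumour line of human mammary epithelial cells from fibrocystic breast tissue, which the labels describe as luminal ductal cells. The 3 control samples received hydrocortisone at 0.5 µg/ml, insulin at 10 µg/ml, cholera toxin at 100 ng/ml and EGF at 20 ng/ml, and the 3 depleted samples received none of these 4 agents. Per the labels both groups received DMEM:F12 with 5% horse serum, antibiotics and glutamine, whereas the study's methods name glutamine for the full medium only. The agents were removed together, so the part of each one cannot be told apart, and the methods say that cells stayed in the depleted medium until their shape changed, without the day on which RNA was taken. Neither do these sources say whether the replicates were separate cultures, so p-values measure the spread between these samples, which may be technical.

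Interferon-stimulated genes form the transcriptional arm of the innate antiviral response. Type I and type III interferons bind receptor pairs at the cell surface, and the associated kinases JAK1 and TYK2 phosphorylate STAT proteins such as STAT2. The complex ISGF3, which holds STAT2 and IRF9, then binds the interferon-stimulated response element in target promoters. Type II interferon, IFN-gamma, acts through JAK1 and JAK2, and the gamma-activated site is the element in its target promoters. The products of the target genes sense viral RNA, block its translation, degrade it or hinder virus entry and release, and many of them are components of the pathway itself. Epithelial cells carry this machinery and can express part of it at a low level without infection.

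What the genes shared beyond their names was looked for in their promoters, since the response element is the DNA site through which the pathway is known to act. The window was 250 bases before to 50 bases after the transcription start, from RefSeq on GRCh38.p14, and 28 of the 34 genes had an entry. IFIT2, OAS2, OASL, IRF7, TRIM22 and PML had none. The core of the response element, GAAANNGAAA on either strand with overlapping matches counted, was present in 19 of these 28 promoters (67.9%), against 996 of all 27305 promoters (3.65%). The gamma-activated site TTCNNNGAA was present in 8 of the 28 (28.6%), against 2152 of all promoters (7.88%). The first motif was found in 5 of the 7 promoters of genes that rose without growth factors (71.4%) and in 14 of the 21 promoters of genes that did not pass the test (66.7%). IFN-gamma target genes outside the list held the first motif in 7 of 10 promoters (70%) and the second in 4 of 10 (40%). A match is a description of letters and not of a bound site.

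The 200 bases before the transcription start are shown for 7 genes, read 5′ to 3′ along the gene, with matches to the response element core on either strand in capitals. The first 4 belong to genes that rose and hold matches: IFI6 (chr1:27672193-27672392, minus strand), ISG15 (chr1:1013297-1013496, plus strand), IFIT1 (chr10:89392423-89392622, plus strand) and IFIT3 (chr10:89327797-89327996, plus strand). ISG15 carries 2 overlapping matches, and IFIT1 and IFIT3 carry theirs on the opposite strand.
IFI6: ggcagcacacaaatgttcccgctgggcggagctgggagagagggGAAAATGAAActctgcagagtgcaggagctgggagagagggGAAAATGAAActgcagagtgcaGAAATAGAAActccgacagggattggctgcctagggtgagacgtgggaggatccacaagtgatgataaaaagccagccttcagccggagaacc
ISG15: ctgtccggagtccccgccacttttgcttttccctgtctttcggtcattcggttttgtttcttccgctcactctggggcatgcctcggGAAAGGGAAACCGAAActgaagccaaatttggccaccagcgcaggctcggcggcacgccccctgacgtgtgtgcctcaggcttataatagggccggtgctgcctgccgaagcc
IFIT1: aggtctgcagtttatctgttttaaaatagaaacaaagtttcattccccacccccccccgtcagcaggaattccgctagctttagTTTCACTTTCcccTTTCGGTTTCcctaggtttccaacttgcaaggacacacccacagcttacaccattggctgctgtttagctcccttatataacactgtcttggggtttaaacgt
IFIT3: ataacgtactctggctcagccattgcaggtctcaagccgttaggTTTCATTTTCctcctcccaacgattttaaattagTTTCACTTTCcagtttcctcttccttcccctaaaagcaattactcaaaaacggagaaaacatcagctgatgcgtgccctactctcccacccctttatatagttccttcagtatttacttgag

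The other 3 are shown because match and change did not go together in them. UBE2L6 (chr11:57567936-57568135, minus strand) had the largest rise of the 34 genes and no match in this window. By the Gencode coordinates of UBE2L6, chr11:57551656-57568284, the stretch shown lies inside the gene. The bases before the Gencode 5′ end were not searched. IFIH1 (chr2:162318685-162318884, minus strand) had 3 matches and nearly equal levels in both groups, and SAMD9 (chr7:93117980-93118179, minus strand) had 1 match and lower values without growth factors.
UBE2L6: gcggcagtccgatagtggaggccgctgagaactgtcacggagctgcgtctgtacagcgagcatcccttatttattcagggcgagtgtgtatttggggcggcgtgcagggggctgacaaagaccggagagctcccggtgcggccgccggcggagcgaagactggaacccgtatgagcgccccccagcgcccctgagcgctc
IFIH1: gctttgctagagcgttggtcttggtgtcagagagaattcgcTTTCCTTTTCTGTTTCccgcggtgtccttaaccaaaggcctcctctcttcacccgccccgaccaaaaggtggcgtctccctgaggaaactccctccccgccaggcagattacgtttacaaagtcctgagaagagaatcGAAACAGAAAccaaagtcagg
SAMD9: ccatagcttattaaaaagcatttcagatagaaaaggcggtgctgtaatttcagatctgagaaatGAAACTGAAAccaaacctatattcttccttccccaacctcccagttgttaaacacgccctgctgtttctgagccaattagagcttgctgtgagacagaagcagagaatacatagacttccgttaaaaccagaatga

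**Figure D1:**
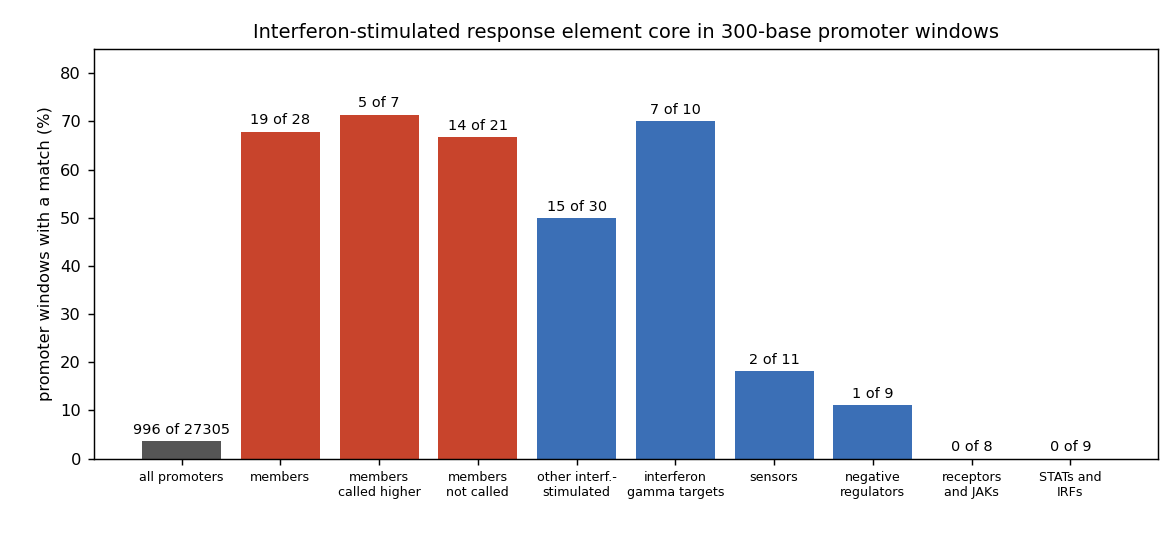
Vertical axis: percent of promoter windows (250 bases before to 50 after the start) with a match to the response element core. Bars stand for all RefSeq promoters, the interferon-stimulated genes described here (members) as a whole and split by their call, and lists of other pathway genes. The members stand at 67.9% against 3.65% of all promoters, IFN-gamma targets at 7 of 10, other interferon-stimulated genes at 15 of 30 and the receptor and STAT or IRF lists at 0 of 8 and 0 of 9.

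Sequencing depth was between 7472418 and 28672630 recovered reads per sample, and 3 reads, taken as the floor, equalled 1.76 to 6.71 normalized counts. A normalized count is a read count divided by the sample's size factor, and it is not divided by gene length. All 7 epithelial markers were measured, with summed normalized counts of 32641 to 75703 in controls and 18728 to 59691 in depleted samples. TP63, a factor of basal epithelial cells, fell from 271 to 1615 in the controls to 8.24 to 64.9 (log2 difference -4.18, limma adjusted p = 0.027), and the other 6 did not pass. The TP63 call held in 3 of the 6 fits with 1 sample left out, with a limma adjusted p of up to 0.0664. Depleted replicate 1 stood apart in part of the 7 markers. It had 610 normalized counts of the adherens junction gene CDH1 against 12961 to 20039 in the other 5 samples, 562 of KRT5 against 10908 to 38503 and 153 of EPCAM against 887 to 3990. Its KRT14 value of 980 was the highest of the 6 samples (12.8 to 306 in the others), and its KRT8 and KRT18 values of 7755 and 8660 lay within the range of the others. For this reason many results are also given without it.

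Of 9 leukocyte markers 3 were measured, with sums of 284 to 909 in controls and 96.4 to 665 in depleted samples, mostly from CD14. The pan-leukocyte gene PTPRC had 1.25, 0 and 1.97 normalized counts in the controls, all at or under the floor, and 10.1, 13.8 and 11.2 in the depleted samples. PTPRC was thus higher in all depleted samples, and its mean was under 10, so it was not tested. Every listed gene had at least 3 reads in at least 3 samples. With all controls under 3 reads, PTPRC could be listed only with at least 3 reads in every depleted sample. Its order between the groups thus followed from the listing. CD14 and LYZ overlapped between the groups, and CD3E, CD68, CD79A, NKG7, ITGAM and HLA-DRA were not analysed here. The 4 endothelial markers summed to 167 to 1787 in controls and 265 to 1610 in depleted samples. Of these CDH5, the cadherin of endothelial junctions, rose from 8.77, 4.10 and 4.92 to 25.6, 118.7 and 100.6 (log2 difference 3.37, limma adjusted p = 0.0282). The CDH5 call held in 2 of the 6 fits with 1 sample left out, with a limma adjusted p of up to 0.146. Its control mean was 5.93, so CDH5 reached the mean of 10 that the test required only through its depleted samples. KDR was lower in all depleted samples without passing (limma adjusted p = 0.193), and PECAM1 and VWF overlapped. The part of these markers in the results below was not tested. In bulk RNA, a larger share of cells with a transcript and more transcript per cell cannot be told apart.

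Of the 34 genes, 9 rose and 0 fell without growth factors by limma, where a call required a 2-fold change and an adjusted p under 0.05. The count that fell was also 0 by edgeR and DESeq2, against 1.7% and 4.97% of all genes. At an unadjusted limma p under 0.05, 17 genes were higher and 1, SAMD9, was lower, against 11.4% and 8.62% of all genes. The 9 were UBE2L6, IFI6, OAS2, IFIT1, IFIT3, ISG15, RIGI, IFIT2 and PARP14. Of these, OAS2 reached the mean of 10 that the test required only through its depleted samples. The 9 made up 26.5% of the list, while 4.36% of the 16988 genes tested rose and 1.97% fell. The 34 genes and the pathway lists were chosen with earlier results of these data known. This share and the shares and medians below thus describe the lists and do not test an excess. Differences are given as log2 of the normalized count plus 1, depleted minus control, which understates changes of genes with low counts. The median difference of the 34 genes was 1.20, with a range from -0.95 to 4.34, against -0.03 over all genes tested, and the difference was above 0 for 30 genes and below 0 for 4. All 3 depleted samples exceeded all 3 controls for 18 genes (52.9%), compared with 13.5% of all genes tested. The reverse held for 1 gene, SAMD9, against 12.1% of all genes.

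The same 9 genes were called by limma, by edgeR (4.02% of all genes higher) and by DESeq2 (7.49% higher) on the recovered reads. DESeq2 called 3 more, IFI44, STAT2 and IFITM3. With any single sample left out, between 5 and 11 of the genes rose, with 6 when depleted replicate 1 was left out. UBE2L6, IFI6, IFIT1, IFIT3 and RIGI passed in all 6 of these fits. ISG15 passed in 3, IFIT2 in 2, and OAS2 and PARP14 only in the fit without control replicate 3.

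**Figure D2:**
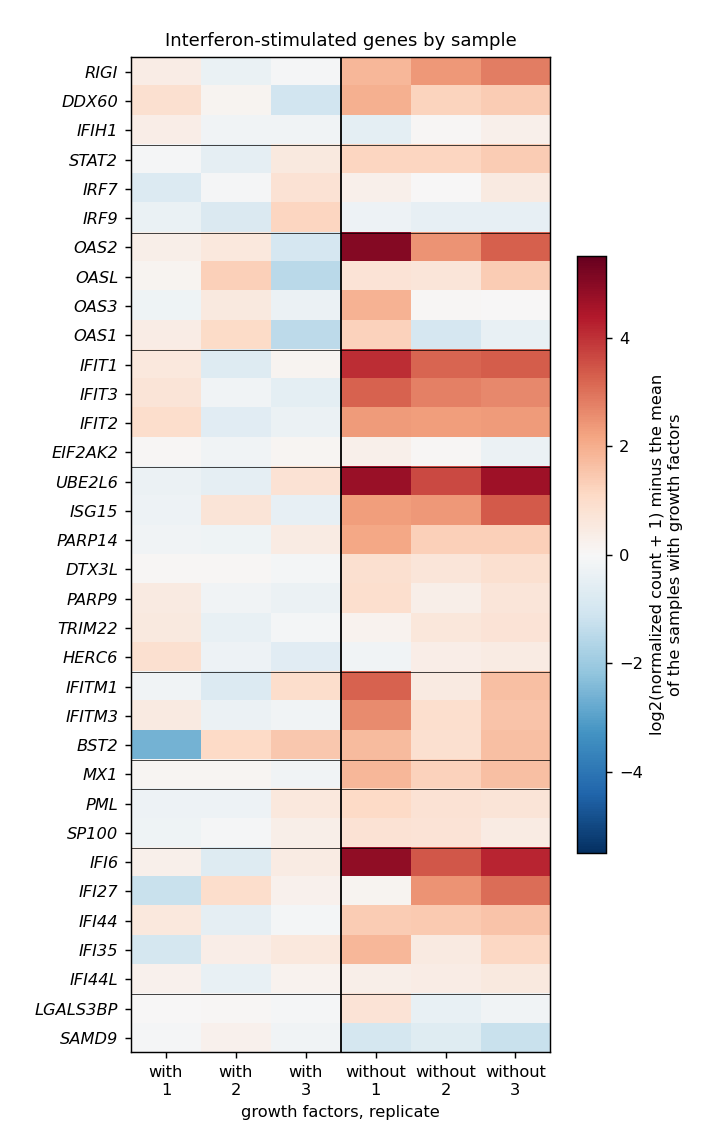
Log2 of the normalized count plus 1 of each of the 34 genes (rows, grouped by role) in each of the 6 samples (columns, with and without growth factors), as the difference from that gene's mean over the 3 controls. The 9 genes that rose differ in all 3 depleted samples, and depleted replicates 1, 2 and 3 have medians of 1.34, 0.77 and 1.34 over the 34 genes.

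The size of the difference varied between the depleted samples. Relative to the mean of the controls, depleted replicates 1, 2 and 3 had medians over the 34 genes of 1.34, 0.77 and 1.34 on the log2 scale. The 3 controls had medians of 0.09, -0.19 and -0.09, and the medians over all genes tested were between -0.03 and 0.01 in the 6 samples. Depleted replicate 2 was thus the lowest of its group, and still above every control. For the 9 genes that rose the depleted medians were 3.25, 2.45 and 3.29, a description only, since these genes were chosen by this contrast. For the other 25 genes they were 0.90, 0.48 and 0.69. Depleted replicate 1 had the highest value of its group for 20 genes, replicate 3 for 13 and replicate 2 for 1. In 7 genes, IFI6, OAS1, OAS2, OAS3, IFITM1, IFITM3 and LGALS3BP, replicate 1 was at least 2 times the mean of the other two, whereas for IFI27 it was 0.15 times that mean.

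**Figure D3:**
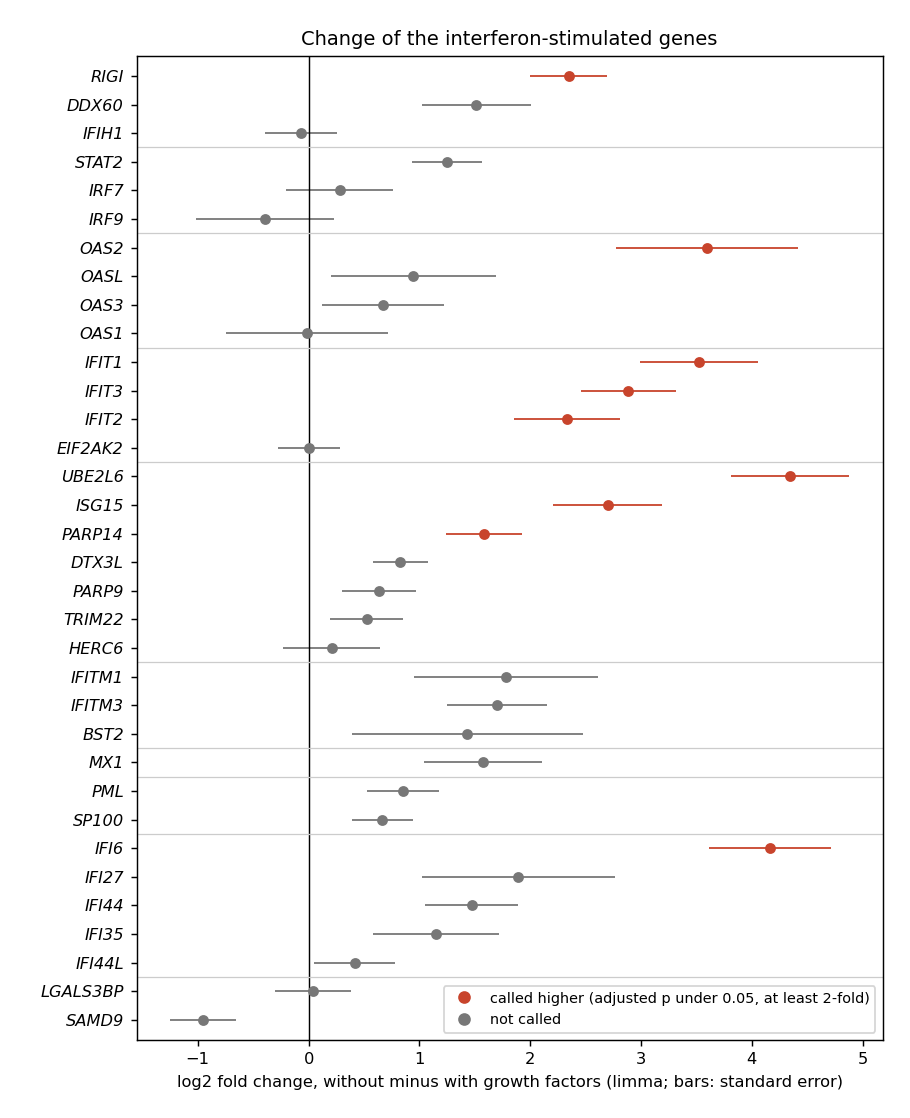
Horizontal axis: fitted log2 difference, depleted minus control, with bars of 1 standard error, for the 34 genes ordered by role. Red points mark the 9 genes that rose, which range from 1.58 for PARP14 to 4.34 for UBE2L6, and the lowest point is SAMD9 at -0.95.

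ISG15 and the enzymes around it included the largest rise. ISG15 is a ubiquitin-like protein that is attached to other proteins in interferon-treated cells, with UBA7 as the activating enzyme, UBE2L6 as the conjugating enzyme and HERC5 as the main ligase. UBE2L6 (chr11:57551656-57568284, hg38) had 12.5, 11.1 and 28.5 normalized counts in the controls and 447.6, 207.8 and 431.5 in the depleted samples. Its lowest depleted value was far above the highest control. The mean rose from 17.4 ± 9.67 to 362 ± 134 (SD, n = 3 each), a ratio of 20.8, with a log2 difference of 4.34 (SE 0.53, limma adjusted p = 0.00304). ISG15 itself (chr1:1001138-1014540) had 33.8, 68.0 and 29.5 in the controls and 205.0, 220.3 and 438.2 in the depleted samples. These groups did not overlap either, and depleted replicate 3 was the highest. The mean rose from 43.8 ± 21.1 to 288 ± 130 (SD, n = 3 each), with a log2 difference of 2.70 (SE 0.49, limma adjusted p = 0.0159). The ISG15 call was lost without control replicate 1 (limma adjusted p = 0.0616), depleted replicate 2 (0.0622) or depleted replicate 3 (0.0948).

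Other members of the ubiquitin and ADP-ribosylation group changed less. PARP14 (chr3:122680839-122730840), an ADP-ribosyltransferase with macrodomains, had 632.9, 611.0 and 990.6 in the controls and 3217.2, 1789.3 and 1782.0 in the depleted samples. Depleted replicate 1 was the highest, and the groups did not overlap. The mean rose from 745 ± 213 to 2263 ± 827 (SD, n = 3 each), a log2 difference of 1.58 (SE 0.34, limma adjusted p = 0.032). The difference was 1.30 without depleted replicate 1 (limma adjusted p = 0.0788), and the adjusted p was 0.0788 to 0.114 in the 5 leave-one-out fits in which the call was lost. It was 0.0569 with a replicate block and 0.0687 without the trend in limma. PARP9 and DTX3L, which form a complex of an inactive ADP-ribosyltransferase and a ubiquitin ligase, did not pass the test. DTX3L had 678.8 to 767.0 in the controls and 1181.5 to 1375.1 in the depleted samples, without overlap, at a log2 difference of 0.83 (limma adjusted p = 0.0956). PARP9 had 305.9 to 532.6 and 475.4 to 720.3, which overlapped, at 0.64 (limma adjusted p = 0.342). Their exons lie on opposite strands and share 139 bases, and the strand setting of the counting is not stated. The ubiquitin ligase TRIM22 had 952.0 to 1849.8 in controls and 1467.2 to 2164.4 in depleted samples, and HERC6, a HECT ligase, 206.6 to 594.0 and 281.0 to 433.8. Both overlapped, with limma adjusted p-values of 0.436 and 0.852. In all, 3 of the 7 genes of this group rose by limma, against 4.36% of all genes tested.

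The 3 IFIT genes of the list rose by limma, against 4.36% of all genes tested. IFIT5, also on chromosome 10 but outside the list, did not pass. It had 813.4, 506.8 and 276.4 normalized counts in the controls and 796.3, 946.1 and 845.2 in the depleted samples. These overlapped, at a log2 difference of 0.83 (limma adjusted p = 0.301). IFIT proteins bind viral RNA, and IFIT1 recognizes RNA whose cap lacks the methylation of cellular messages. The genes of the 3 lie close together on chromosome 10. IFIT1 (chr10:89392546-89406487) had 18.8, 7.0 and 13.8 normalized counts in the controls and 217.8, 122.6 and 131.9 in the depleted samples. The groups did not overlap, and the mean rose from 13.2 ± 5.91 to 157 ± 52.5 (SD, n = 3 each), a log2 difference of 3.53 (SE 0.53, limma adjusted p = 0.00692). IFIT3 (chr10:89327307-89377473), which stabilizes IFIT1 on RNA, had 94.0, 49.2 and 39.3 in the controls and 549.2, 394.1 and 355.5 in the depleted samples. Depleted replicate 1 was the highest for both. The mean of IFIT3 rose from 60.9 ± 29.1 to 433 ± 103 (SD, n = 3 each), a log2 difference of 2.88 (SE 0.43, limma adjusted p = 0.00652). IFIT2 (chr10:89283694-89309271) had 106.5, 34.6 and 43.3 in the controls and 277.3, 274.1 and 281.7 in the depleted samples. Its depleted samples were nearly equal, so that the spread lay in the controls. The log2 difference was 2.33 (SE 0.48, limma adjusted p = 0.0248), and 2.33 without depleted replicate 1 (0.0656). The IFIT2 call was also lost without control replicate 2 (limma adjusted p = 0.0734), depleted replicate 2 (0.105) or depleted replicate 3 (0.113).

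EIF2AK2, which encodes the RNA-activated kinase PKR and is likewise a block to translation, differed from the IFIT genes. It had 1958.8, 1643.3 and 1997.0 normalized counts in the controls and 2243.4, 1962.4 and 1469.0 in the depleted samples. The groups overlapped, and the log2 difference was 0.00 (SE 0.28, limma adjusted p = 0.998).

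**Figure D4:**
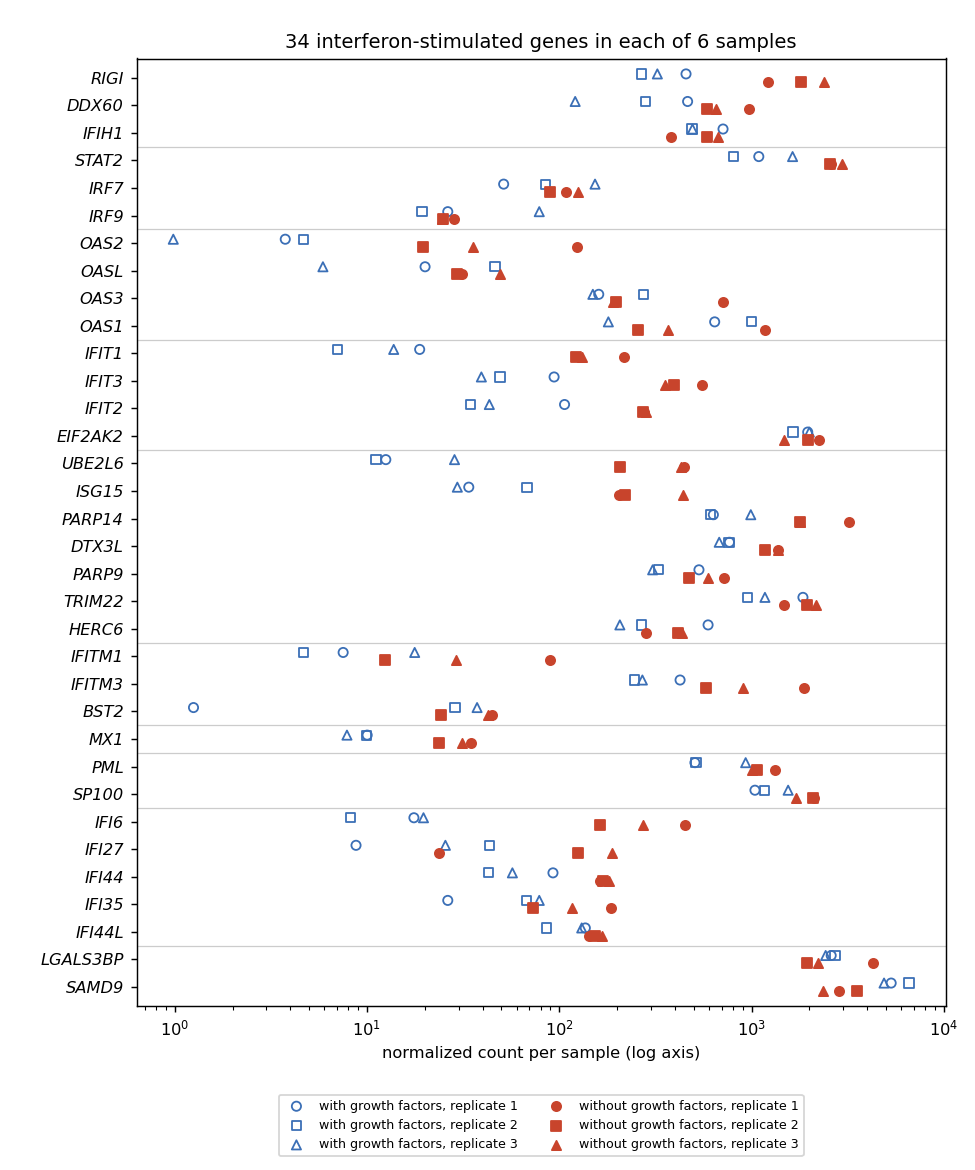
Horizontal axis: normalized count on a log axis, with 1 point for each of the 6 samples and 1 row for each of the 34 genes, grouped by role. Open blue symbols are samples with growth factors and filled red symbols samples without. In UBE2L6, IFI6 and IFIT1 all red points lie to the right of the blue ones, in SAMD9 all lie to the left, and those of OAS1, IFIH1 and EIF2AK2 overlap.

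Among the genes named IFI, IFI6 rose and the other 4 did not pass the test, while 4.36% of all genes rose by limma. IFI6 (chr1:27666064-27672212), a small membrane protein of the endoplasmic reticulum and mitochondria, had 17.5, 8.2 and 19.7 normalized counts in the controls and 451.2, 163.3 and 272.8 in the depleted samples. All depleted values were far above the controls, with replicate 1 the highest. The mean rose from 15.1 ± 6.1 to 296 ± 145 (SD, n = 3 each), a ratio of 19.5, with a log2 difference of 4.16 (SE 0.55, limma adjusted p = 0.00406) and of 3.80 without depleted replicate 1 (0.0151). IFI44, a cytoplasmic protein, had 42.8 to 92.7 in the controls and 163.8 to 181.1 in the depleted samples, which did not overlap, at a log2 difference of 1.47 (SE 0.42, limma adjusted p = 0.081). Its paralog IFI44L had 86.1 to 136.6 and 142.8 to 167.7, at 0.41 (SE 0.37, limma adjusted p = 0.604), also without overlap. IFI27 had 8.8, 43.4 and 25.6 in the controls and 23.8, 124.6 and 187.8 in the depleted samples. Here depleted replicate 1 lay among the controls, and the log2 difference was 1.89 with it (limma adjusted p = 0.277) and 2.77 without it (0.0816). IFI35 had 26.3 to 78.7 and 72.8 to 185.8, which overlapped (limma adjusted p = 0.315).

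The oligoadenylate synthetases make the second messenger that activates RNase L. Of these 4 genes OAS2 rose by limma, against 4.36% of all genes tested. OAS2 (chr12:112978395-113011723) had 3.8, 4.7 and 1.0 normalized counts in the controls and 123.6, 19.7 and 35.8 in the depleted samples. In 2 of the 3 controls the value was at or under the floor of 3 reads, and the depleted values lay above all controls. The control mean was 3.14, so OAS2 reached the mean of 10 that the test required only through its depleted samples. The log2 difference was 3.59 (SE 0.82, limma adjusted p = 0.0388), and 2.87 without depleted replicate 1 (limma adjusted p = 0.1), and it depends on the pseudocount at such low levels. The limma adjusted p was 0.0659 to 0.123 in the 5 leave-one-out fits in which the OAS2 call was lost, 0.0613 with a pseudocount of 10 and 0.085 with quantile normalization. Its neighbours on chromosome 12 did not pass. OAS1 (chr12:112905856-112933219) had 642.9, 997.1 and 180.0 in the controls and 1180.7, 255.7 and 368.9 in the depleted samples, with a log2 difference of -0.02 (SE 0.73, limma adjusted p = 0.995). OAS3 (chr12:112938051-112976460) had 160.4, 273.0 and 149.5 in the controls and 713.0, 196.7 and 190.1 in the depleted samples. Both spread widely within a group, and depleted replicate 1 was the highest of the 6 samples for all 3 of these genes, at 3.78, 4.46 and 3.69 times the mean of the other depleted samples for OAS1, OAS2 and OAS3. The log2 difference of OAS3 was 0.67 with this sample (limma adjusted p = 0.575) and 0.05 without it (0.975). OASL, a family member without synthetase activity, had 5.9 to 46.3 and 29.5 to 49.2, which overlapped (limma adjusted p = 0.556).

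The cytoplasmic RNA sensors differed from each other. RIGI (chr9:32455302-32526208), the helicase that detects short RNA with a triphosphate end, had 456.2, 268.3 and 323.6 normalized counts in the controls and 1218.2, 1805.7 and 2390.2 in the depleted samples. The groups did not overlap, and depleted replicate 1 was the lowest of its group. The mean rose from 349 ± 96.5 to 1805 ± 586 (SD, n = 3 each), a log2 difference of 2.35 (SE 0.35, limma adjusted p = 0.00635). It was 2.60 without depleted replicate 1 (limma adjusted p = 0.00792). IFIH1, which encodes the sensor of long double-stranded RNA MDA5, had 710.6, 489.8 and 492.9 in the controls and 379.8, 584.9 and 666.3 in the depleted samples. These overlapped, and the log2 difference was -0.07 (SE 0.33, limma adjusted p = 0.941). The helicase DDX60 had 465.0, 281.8 and 121.0 in the controls and 971.1, 585.5 and 655.1 in the depleted samples, without overlap, at 1.51 (SE 0.49, limma adjusted p = 0.121).

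Of the genes for membrane proteins that act on virus entry or release, 0 of 3 passed the test by limma or edgeR, and 1 did by DESeq2 and at an unadjusted limma p under 0.05. Over all genes 4.36% rose by limma, 4.02% by edgeR and 7.49% by DESeq2, and 11.4% were higher at that p. With 3 genes, a count of 0 is near these shares. IFITM3, which hinders fusion of virus with endosomes, had 424.8, 247.2 and 270.5 normalized counts in the controls and 1880.9, 579.6 and 898.8 in the depleted samples. The groups did not overlap, and depleted replicate 1 was 2.54 times the mean of the other two. The log2 difference was 1.70 (SE 0.45, limma adjusted p = 0.067, DESeq2 adjusted p = 0.00414), and 1.24 without depleted replicate 1 (limma adjusted p = 0.144). IFITM1 had 4.7 to 17.7 in the controls and 12.5 to 89.7 in the depleted samples, which overlapped, at 1.78 (limma adjusted p = 0.283). The IFITM genes are close copies of each other, so reads may be split between them and their separate values are uncertain. BST2, the tethering protein that retains budding virus, had 1.3, 28.7 and 37.4 and 44.8, 24.3 and 42.5, with control replicate 1 under the floor, at 1.43 (SE 1.04, limma adjusted p = 0.516). The antiviral GTPase MX1 was low in both groups, with 10.0, 10.0 and 7.9 in the controls and 34.8, 23.6 and 31.3 in the depleted samples. Its groups did not overlap, and the log2 difference was 1.58 (SE 0.53, limma adjusted p = 0.135).

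Of the 3 transcription factors of the pathway on the list, 0 passed by limma or edgeR, and STAT2 alone passed by DESeq2 and had an unadjusted limma p under 0.05. Over all genes 4.36% rose by limma, 4.02% by edgeR and 7.49% by DESeq2, so a count of 0 of 3 is near these shares. STAT2 (chr12:56341597-56360203) had 1090.3, 805.5 and 1634.0 normalized counts in the controls and 2583.9, 2542.7 and 2953.7 in the depleted samples. The groups did not overlap, with a log2 difference of 1.25 (SE 0.32, limma adjusted p = 0.0555). IRF9 had 26.3, 19.3 and 78.7 in the controls and 28.4, 24.9 and 24.6 in the depleted samples. Control replicate 3 was the highest of the 6 samples, and the log2 difference over all samples was -0.39 (SE 0.62, limma adjusted p = 0.789). IRF9 shares 23.9% of its exon bases with another gene on the same strand, so its counts are uncertain. IRF7, the factor that amplifies interferon production, had 51.4 to 153.5 and 89.8 to 125.2, at 0.28 (SE 0.48, limma adjusted p = 0.811).

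SP100 and PML, scaffold proteins of nuclear bodies that restrict DNA viruses, were higher in all depleted samples without passing the test. SP100 had 1041.4 to 1549.4 normalized counts in the controls and 1703.8 to 2119.8 in the depleted samples, at a log2 difference of 0.67 (SE 0.27, limma adjusted p = 0.22). PML had 507.6 to 931.6 and 1006.2 to 1324.4, at 0.85 (SE 0.32, limma adjusted p = 0.183). The secreted glycoprotein gene LGALS3BP had 2594.2, 2716.6 and 2427.9 in the controls and 4296.4, 1942.1 and 2227.0 in the depleted samples, at 0.04 (SE 0.35, limma adjusted p = 0.973). SAMD9, a restriction factor of poxviruses, was the one gene with all depleted samples below the controls. It had 5320.0, 6583.8 and 4885.2 in the controls and 2844.7, 3536.7 and 2345.5 in the depleted samples, a log2 difference of -0.95 (SE 0.29, limma adjusted p = 0.104). Without control replicate 3 the difference was -1.04, which passed (limma adjusted p = 0.0458).

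Per kilobase of exon, the 34 genes spanned a wide range in the controls. The lowest means were 0.28 normalized counts per kb for OAS2 and 0.516 for MX1, and the highest were 754 for LGALS3BP and 816 for SAMD9.

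The components upstream of these genes were compared in the same fit. Of the 21 interferon genes looked for, IFNE was measured, with 5.0, 6.4 and 131.8 normalized counts in the controls and 59.5, 78.7 and 11.2 in the depleted samples. These overlapped (limma adjusted p = 0.699), and the other 20 interferon genes were not analysed here. Of 9 receptor chains and JAK kinases, 0 passed the test by limma, edgeR or DESeq2. Of these genes, 1 had an unadjusted limma p under 0.05, and the median log2 difference was 0.22. At that p, 11.4% of all genes were higher and 8.62% lower, while the limma call held for 4.36% higher and 1.97% lower. The type I receptor chains IFNAR1 and IFNAR2 differed by 0.36 and 0.73 (limma adjusted p = 0.586 and 0.363). JAK1 and TYK2 differed by 0.22 and -0.11 (limma adjusted p = 0.728 and 0.906), and JAK2 by -0.13 (0.904). Among the receptor chains of the other interferons, IFNLR1, IL10RB and IFNGR2 differed by 0.85, -0.53 and 0.80 (limma adjusted p = 0.574, 0.568 and 0.323). IFNGR1 was lower in all depleted samples, with 2462.6, 1467.0 and 1354.6 in the controls and 727.7, 1063.5 and 986.0 in the depleted samples, at -0.89 (limma adjusted p = 0.161).

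Of 13 further STAT and IRF genes looked for, 11 were measured and tested. Of these 11, 0 passed by limma or edgeR and 2 by DESeq2, with a median log2 difference of -0.09. An unadjusted limma p under 0.05 was found for 4, of which 1 was higher and 3 were lower. Over all genes, 11.4% were higher and 8.62% lower at that p, and DESeq2 called 7.49% higher and 4.97% lower. Among the 11, the DESeq2 calls were IRF1, higher, and STAT4, lower. IRF1, a factor induced by IFN-gamma, had 384.7, 557.1 and 776.2 normalized counts in the controls and 1336.3, 1117.9 and 1348.3 without growth factors, without overlap, at 1.20 (SE 0.32, limma adjusted p = 0.0667, DESeq2 0.0234). STAT4, a factor of interleukin-12 signalling, had 21.3, 62.1 and 26.6 in the controls and 0.915, 7.87 and 4.47 in the depleted samples, also without overlap, at -2.90 (SE 0.78, limma adjusted p = 0.068, DESeq2 0.0136). Of its depleted values 2 were at or under the floor of 3 reads, so the size of this difference is uncertain. Of 16 further sensors and adaptors of nucleic acids looked for, 11 were measured and tested. Of these 11, 0 passed by limma or edgeR and 1 by DESeq2, and 1 had an unadjusted limma p under 0.05, with a median log2 difference of 0.44. Among 11 negative regulators tested, of 12 looked for, 1 rose and 0 fell, against 4.36% and 1.97% of all genes, with a median of 0.20. The one that rose was SOCS3, an inhibitor of JAK kinases, from 40.1, 51.6 and 108.2 in the controls to 272.8, 291.1 and 297.4 in the depleted samples, a log2 difference of 2.22 (SE 0.44, limma adjusted p = 0.0227). It was 2.26 without depleted replicate 1 (limma adjusted p = 0.0579), and of the leave-one-out fits only the one without control replicate 3 kept the call. USP18, the protease that removes ISG15 and restrains the type I receptor, had 36.3, 83.2 and 15.7 in the controls and 85.1, 42.0 and 44.7 in the depleted samples, which overlapped (limma adjusted p = 0.713).

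A list of other interferon-stimulated genes, outside the list described here, held 40 genes, of which 36 were measured and 34 tested. Of these 34, 3 rose and 0 fell by limma and by edgeR, with a median log2 difference of 0.49. By limma 4.36% of all genes rose and 1.97% fell. DESeq2 called 4 higher and 1 lower, against 7.49% and 4.97% of all genes. At an unadjusted limma p under 0.05, 6 were higher and 3 lower, against 11.4% and 8.62% of all genes. The one called lower by DESeq2 was LY6E, a membrane protein of the LY6 family, with 6957, 6873 and 2208 normalized counts in the controls and 2123, 754 and 1154 in the depleted samples. These did not overlap, at a log2 difference of -1.94 (SE 0.54, limma adjusted p = 0.074, DESeq2 0.00435, limma with a replicate block 0.0404). HERC5, the ISG15 ligase, had 11.3, 17.6 and 26.6 normalized counts in the controls and 165.7, 171.1 and 127.4 in the depleted samples, a log2 difference of 3.07 (limma adjusted p = 0.00815). UBA7, the activating enzyme of the same pathway, had 51.4, 109.6 and 390.5 and 528.1, 240.6 and 384.6, which overlapped, at 1.48 (limma adjusted p = 0.285). SAMD9L, the neighbour and paralog of SAMD9, had 154.1, 151.1 and 276.4 in the controls and 1146.9, 603.2 and 480.7 in the depleted samples. It thus rose (1.89, limma adjusted p = 0.0351), whereas SAMD9 had lower values in all depleted samples. RTP4, a chaperone of receptor transport, had 0, 3.5 and 2.0 in the controls, of which 2 were at or under the floor, and 25.6, 17.7 and 53.7 without growth factors (limma adjusted p = 0.0335). With a control mean of 1.83, RTP4 entered the test only through its depleted samples, and its listing also needed reads there. Without depleted replicate 1, HERC5 differed by 3.01 (limma adjusted p = 0.0297), SAMD9L by 1.53 (0.0907) and RTP4 by 3.75 (0.072).

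A list of IFN-gamma targets held 16 genes, of which 11 were measured and 9 reached the mean of 10 and were tested. Of these 9 genes, 4 rose and 0 fell, against 4.36% and 1.97% of all genes. The median log2 difference was 2.17. CD274, which encodes the immune checkpoint ligand PD-L1, had 43.9, 32.8 and 72.8 normalized counts in the controls and 535.4, 551.4 and 831.8 in the depleted samples, a log2 difference of 3.70 (limma adjusted p = 0.00204). NLRC5, the activator of MHC class I genes, had 76.4, 66.2 and 251.8 in the controls and 772.5, 1119.9 and 1044.2 in the depleted samples, at 3.14 (limma adjusted p = 0.0093). For both, every depleted sample was above every control. The guanylate-binding protein gene GBP1 had 288.2, 233.2 and 286.3 in the controls and 747.8, 2475.1 and 2857.5 in the depleted samples, at 2.70 (limma adjusted p = 0.0157). GBP4, of the same family, had 0, 0 and 3.9 in the controls and 195.0, 28.2 and 35.8 in the depleted samples, which did not overlap (limma adjusted p = 0.0193). With a control mean of 1.31, GBP4 entered the test only through its depleted samples, and its listing also needed reads there. Its order between the groups is thus partly set by these filters. Depleted replicate 1 was thus the lowest of its group for GBP1 and the highest for GBP4. Without it, the limma adjusted p was 0.00656 for CD274, 0.0218 for NLRC5, 0.00256 for GBP1 and 0.0493 for GBP4. The lists were read as counts and medians, and the difference between them was not tested.

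**Figure D5:**
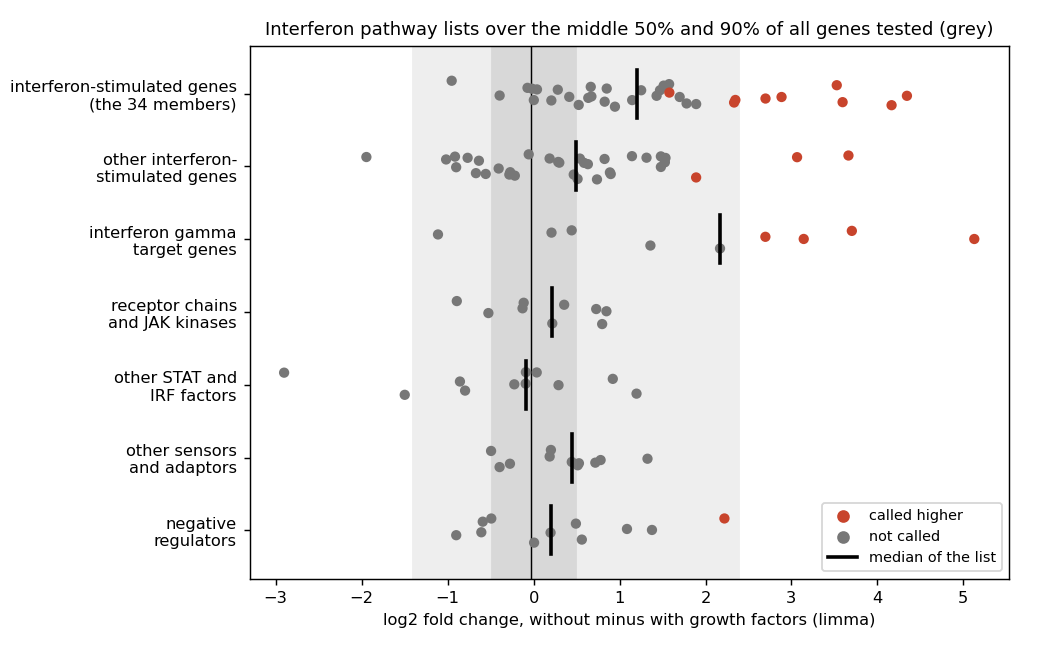
Fitted log2 differences, depleted minus control, of each tested gene in the 34 genes and in 6 pathway lists, with red points for genes that rose, a bar at each median and grey bands for the middle 50% and 90% of all genes tested. From top to bottom the medians are 1.20, 0.49, 2.17, 0.22, -0.09, 0.44 and 0.20.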

How the data were processed

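RNA-Seq of MCF10A cells was used, with 3 samples with and 3 without growth factors, grouped and numbered by their labels. The series' design text speaks of 2 replicates, while the labels and the deposited columns hold 3 for each condition, and n = 3 rests on the labels. The authors depleted ribosomal RNA, made stranded libraries, read 100 bases from one end, mapped with TopHat2 to hg38, counted with HTSeq on Gencode v22 and deposited a normalized signal per gene, read counts divided by DESeq2 size factors. Versions in the submitters' processing notes are cutadapt 1.6, HTSeq 0.6, R 3.2.0 and DESeq2 1.8.1. The strand setting of the counting is not stated. Of the deposited values, 100% were whole multiples of 1 read within 0.01 read, and whole reads were recovered from them. PCR reads carry no molecular identifiers, so the floor of 3 reads covers counting error only. Gencode v44 named 18913 of 19198 genes and gave the gene coordinates.

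limma 3.58.1 in R 4.3.3 (eBayes with a trend) was fitted to log2(normalized count + 1). Genes whose mean reached 10 entered (16988), with Benjamini-Hochberg adjustment over all of them, and a call required a 2-fold change and an adjusted p under 0.05. The fit was tested on simulated data. An exact permutation test of 3 against 3 samples cannot go below p = 0.1 and was not used. edgeR 4.0.16 (quasi-likelihood, TMM) and DESeq2 1.42.0 on the recovered reads were alternatives. Other alternatives were pseudocounts of 0.5 and 10, no filter, a mean of at least 50, equal totals, quantile normalization, limma without the trend, a replicate block, each sample left out, an adjusted p under 0.1 and no fold threshold. Python 3.11.15 with pandas 2.3.3, numpy 2.4.6 and matplotlib 3.10.9 served for tables and plots.

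The 34 genes and the pathway lists were chosen with earlier results of these data known. The text gives all 34 genes, every gene of the pathway and marker lists that passed the test, and the receptor chains, JAK kinases, IRF1, IFNE and USP18. UBA7, LY6E, STAT4, IFIT5 and the other marker genes named were added after their values were seen. A gene withheld for evaluation is not reported here. Protein sequences were not used here.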

Additional observations from a re-analysis of the deposited data

How the results depend on the processing

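The count of 9 genes that rose was 9 with edgeR, 12 with DESeq2 and 8 with a pseudocount of 10 or quantile normalization, and 5 to 11 with a sample left out. It was 5 without depleted replicate 2 or 3 and 11 without control replicate 3. The count that fell was 0 in the main analysis and 0 to 1 with a sample left out. The median log2 difference of the 34 genes stayed between 0.95 and 1.39 with a sample left out. The pathway lists gave, for STAT and IRF genes, 2 changed genes with DESeq2, 1 with quantile normalization, 2 at an adjusted p under 0.1 and 0 to 1 with a sample left out. For sensors it was 1 with DESeq2, for negative regulators 0 to 1 with a sample left out, and for IFN-gamma targets 1 to 7. The calls of HERC5 and NLRC5 were lost without depleted replicate 2 (limma adjusted p = 0.0585 and 0.0523), those of GBP1 and GBP4 without control replicate 1 or 2 or depleted replicate 2 or 3 (0.0501 to 0.0761), that of RTP4 in 4 and that of SAMD9L in 5 of the 6 fits with a sample left out. CD274 passed in all 6. For other interferon-stimulated genes it was 5 with DESeq2 (4 higher and 1 lower), with no filter or at an adjusted p under 0.1, and 0 to 8 with a sample left out. Over all genes 1076 changed, against 2116 with DESeq2, 1706 at an adjusted p under 0.1 and 453 to 2474 with a sample left out. The cause was not tested.

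The sign turned for OAS1, at 0.0401 with edgeR, 0.0442 with quantile normalization, 0.0310 with equal totals and -0.73 to 0.50 with a sample left out. It also turned with a sample left out for IFIH1 (-0.24 to 0.17), IRF7 (-0.10 to 0.68), IRF9 (-0.79 to 0.19), HERC6 (-0.11 to 0.65), EIF2AK2 (-0.13 to 0.17), LGALS3BP (-0.31 to 0.26), TYK2 (-0.42 to 0.13) and USP18 (-0.0199 to 1.15). None of these passed the test. Over 53 named genes and 18 alternatives, 863 values kept sign and call, 48 lost the call, 14 gained it and 20 changed sign.

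With a replicate block 9 genes of the list rose and, over all genes, 689 rose and 278 fell. PARP14 (limma adjusted p = 0.0569) and SAMD9L (0.051) then missed the threshold, and IFITM3 (0.0365, higher) and LY6E (0.0404, lower) passed. Deviations of samples with the same number correlated at -0.07, -0.28 and -0.32, and 0 samples correlated best with their own number. Deviations within such small groups depend on each other, and a sample that stands apart can mask a shared culture or batch. These correlations thus cannot decide whether the numbers pair the samples. Depth limits OAS2, BST2, RTP4 and GBP4, whose controls include values at or under 3 reads, and STAT4, whose depleted samples include such values.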

Other observations

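In 3 interferon-induced genes, all controls were listed at 0 and all depleted samples above 0, and these genes were chosen after their values were seen. Every listed gene had at least 3 reads in at least 3 samples. A listed gene at 0 in all controls thus had to be above 0 in all depleted samples, so this pattern followed from the listing. The share of all genes with it was not counted. XAF1, a pro-apoptotic protein, had 27.5, 9.2 and 17.9 normalized counts in depleted replicates 1, 2 and 3. APOBEC3G, a cytidine deaminase that restricts retroviruses, had 21.1, 6.6 and 6.7, and IDO1, the tryptophan-degrading enzyme, 11.0, 5.9 and 6.7. The 6.7 of both genes in depleted replicate 3 equals 3 reads and is at the floor. A count of 0 allows up to the floor of 3 reads in each control. All 3 genes had means under 10 over the 6 samples and were not tested. In all 3 genes depleted replicate 1 was the highest, as in 20 of the 34 interferon-stimulated genes.

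The 11 sensors and adaptors tested include STING1, the adaptor of cytoplasmic DNA sensing, with 125.3, 175.2 and 211.5 normalized counts in the controls and 870.4, 300.9 and 281.7 in the depleted samples. Its groups did not overlap, and the log2 difference was 1.33 with depleted replicate 1 (limma adjusted p = 0.167) and 0.80 without it (0.372). STING1 was the 1 gene of these 11 called by DESeq2, at a log2 difference of 1.51 (DESeq2 adjusted p = 0.0403). MAVS, the adaptor of RIGI and IFIH1, was lower in all depleted samples, with 3183.2, 3752.9 and 3407.7 in the controls and 2701.0, 2439.7 and 2714.4 in the depleted samples, at a log2 difference of -0.40 (limma adjusted p = 0.452). These 2 genes were also chosen after their values were seen.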
